A study of Mus musculus with 16 samples.

Results

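The 9 genes of the BAFF, TACI and CD40 receptor axis were examined in antigen-binding splenic B cells of mice carrying the ZSDAT allele of Zfp318. The members were taken by symbol from the count tables, which held all 9 of them among 22675 genes. They were the receptors Tnfrsf13b, Tnfrsf13c, Tnfrsf17, Cd40 and Cd27, the adaptors Traf2 and Traf3, the kinase Map3k14 and the NF-kappaB subunit Nfkb2. Messenger RNA had been sequenced from 16 Smart-seq2 libraries of about 1000 cells each, a full-length protocol for small cell numbers. HetTN and HetTP were tdTomato-negative and tdTomato-positive cells of Zfp318 ZSDAT/+ mice, and KOTN and KOTP were the same populations of Zfp318 ZSDAT/ZSDAT mice, with 4 libraries in each group. All mice were C57BL/6 and carried AID-Cre, the rearranged heavy chain B1-8hi and GFP, so the heterozygous controls shared these alleles and 1 copy of ZSDAT. Spleens were taken 7 days after NP-OVA with LPS and alum, and the sorted cells were B220+, CD38+ and NIP-binding and lacked CD138, GL7, FAS and surface IgD. The design compared memory B cells with and without Zfp318, a zinc finger protein needed for IgD expression. Ages are not given in the sources used here.

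BAFF, the product of Tnfsf13b, is a survival factor for B cells that binds the BAFF receptor (Tnfrsf13c), TACI (Tnfrsf13b) and BCMA (Tnfrsf17). CD40 receives help from T cells through CD40 ligand, and CD27 binds CD70. In resting B cells TRAF2 and TRAF3, together with the ubiquitin ligases BIRC2 and BIRC3, keep the kinase NIK (Map3k14) at a low level. Engagement of the BAFF receptor or CD40 frees NIK, which leads to processing of p100, the product of Nfkb2, to p52 and to nuclear p52-RELB dimers.

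The promoters of the receptor pair for BAFF are shown because both receptor transcripts were higher in homozygous tdTomato-negative cells. Each run is the 250 bases upstream of the start in RefSeq (GRCm38.p6), read on the gene's strand. Capitals mark matches to GGGNNTTNC on either strand, a loose NF-kappaB-like pattern. Tnfrsf13b lies at chr11:61126505-61126754 on the plus strand and Tnfrsf13c at chr15:82224381-82224630 on the minus strand.
Tnfrsf13b: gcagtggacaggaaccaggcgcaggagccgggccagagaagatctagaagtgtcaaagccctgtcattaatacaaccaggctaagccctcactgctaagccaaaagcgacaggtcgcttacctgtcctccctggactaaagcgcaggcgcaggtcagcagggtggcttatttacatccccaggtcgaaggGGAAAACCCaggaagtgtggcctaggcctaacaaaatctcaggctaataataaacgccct
Tnfrsf13c: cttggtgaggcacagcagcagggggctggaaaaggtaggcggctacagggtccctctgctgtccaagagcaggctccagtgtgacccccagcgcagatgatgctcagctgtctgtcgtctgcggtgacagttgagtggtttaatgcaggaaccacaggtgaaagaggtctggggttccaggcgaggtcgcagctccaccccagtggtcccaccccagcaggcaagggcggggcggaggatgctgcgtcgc
The Tnfrsf13b window held 1 match, GGAAAACCC, which began 60 bases upstream of the start, and the Tnfrsf13c window held none. Among 32851 RefSeq windows of the same length, 4271 (13%) held the pattern. RefSeq held windows for 8 of the 9 members. Traf3 had the overlapping matches GGGGATTTC and GGGATTTCC at 10 and 9 bases upstream. Nfkb2, which has several starts, had the overlapping pairs GGGAATTCC and GGAATTCCC at 39 and 38 bases and GGGGCTTTC and GGGCTTTCC at 11 and 10 bases upstream of one start. Its other starts had GAAAATCCC at 182 bases and GGGACTTTC at 225 bases upstream. No match was found for Tnfrsf17, Cd27, Traf2 or Map3k14. The pattern was chosen after the windows had been seen, and a match is a description of these letters only.

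Values are given as CPM, counts relative to the library total after TMM scaling. Total counts ranged from 7748787 to 15742445. Zfp318 itself was between 71.0 and 153 CPM in the heterozygous libraries and between 0.468 and 5.83 CPM in the homozygous ones, as the genotype labels state. Its log2 change with tdTomato was -0.21 in heterozygous (95% interval from -0.79 to 0.37) and -0.32 in homozygous libraries (from -1.64 to 1.01). Neither was called, so Zfp318 checks the genotype labels and not the tdTomato labels. The genotypes came in separate deposited tables, so a batch cannot be told apart from genotype. The heterozygous libraries varied more, with a biological coefficient of variation of 0.845 against 0.2, and had no count for 7.02 to 13.6% of tested genes against 1.52 to 2.34%. The 10 B cell markers were present in every group, with a summed level of 10371 to 15012 CPM in heterozygous and 15935 to 17727 CPM in homozygous libraries. Markers of other cells also moved with genotype. The 12 T cell markers summed to between 187 and 647 CPM in heterozygous and between 30.2 and 51.9 CPM in homozygous libraries. In heterozygous libraries most of that sum was Trac (means of 280 and 264 CPM in HetTN and HetTP) and Lck (82.5 and 107 CPM), with Cd3e at 2.06 and 2.64 CPM. In homozygous libraries Trac had 0 counts in KOTN and 2 in KOTP, and Lck was at 32.2 and 44.3 CPM. Cd4, Cd28 and Bcl11b had no count in any group. The 12 macrophage markers summed to between 123 and 1367 CPM and between 59.4 and 113 CPM. Within the macrophage list Adgre1 went the other way, at 0 to 21.8 CPM in heterozygous and 32.8 to 55.5 CPM in homozygous libraries. The sum of the 8 dendritic cell markers was also higher in homozygous libraries, at 17.2 to 48.8 CPM against 47.8 to 65.3 CPM. The genotypes did not overlap within either population. Most of that sum was Flt3, with means of 27.2 and 23.1 CPM in HetTN and HetTP against 53.7 and 49.8 CPM in KOTN and KOTP. Zbtb46 was also higher (0.09 and 0.36 against 3.07 and 3.41 CPM), Batf3 was lower (1.22 and 0.93 against 0.46 and 0.12 CPM), and Xcr1 had no count. The 6 plasma cell markers summed to 1102 to 2139 CPM in HetTN, 829 to 881 CPM in HetTP and 1054 to 1269 CPM in homozygous libraries. Most of that sum was Mzb1 (means of 1029 and 578 CPM in HetTN and HetTP) and Jchain (347 and 137 CPM), and Xbp1 was also lower in HetTP. Prdm1 had a lower mean in HetTP (13.3 and 8.75 CPM) but a higher median (3.58 and 10.2 CPM). Its highest HetTN library held 45.9 CPM. Sdc1 (1.31 and 7.05 CPM) and Irf4 (14.5 and 26.5 CPM) went the other way. None of the 6 was called between HetTP and HetTN. The part of these cells in the results was not tested. In such bulk libraries fewer cells of a type and less RNA per cell cannot be told apart.

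**Figure D1:**
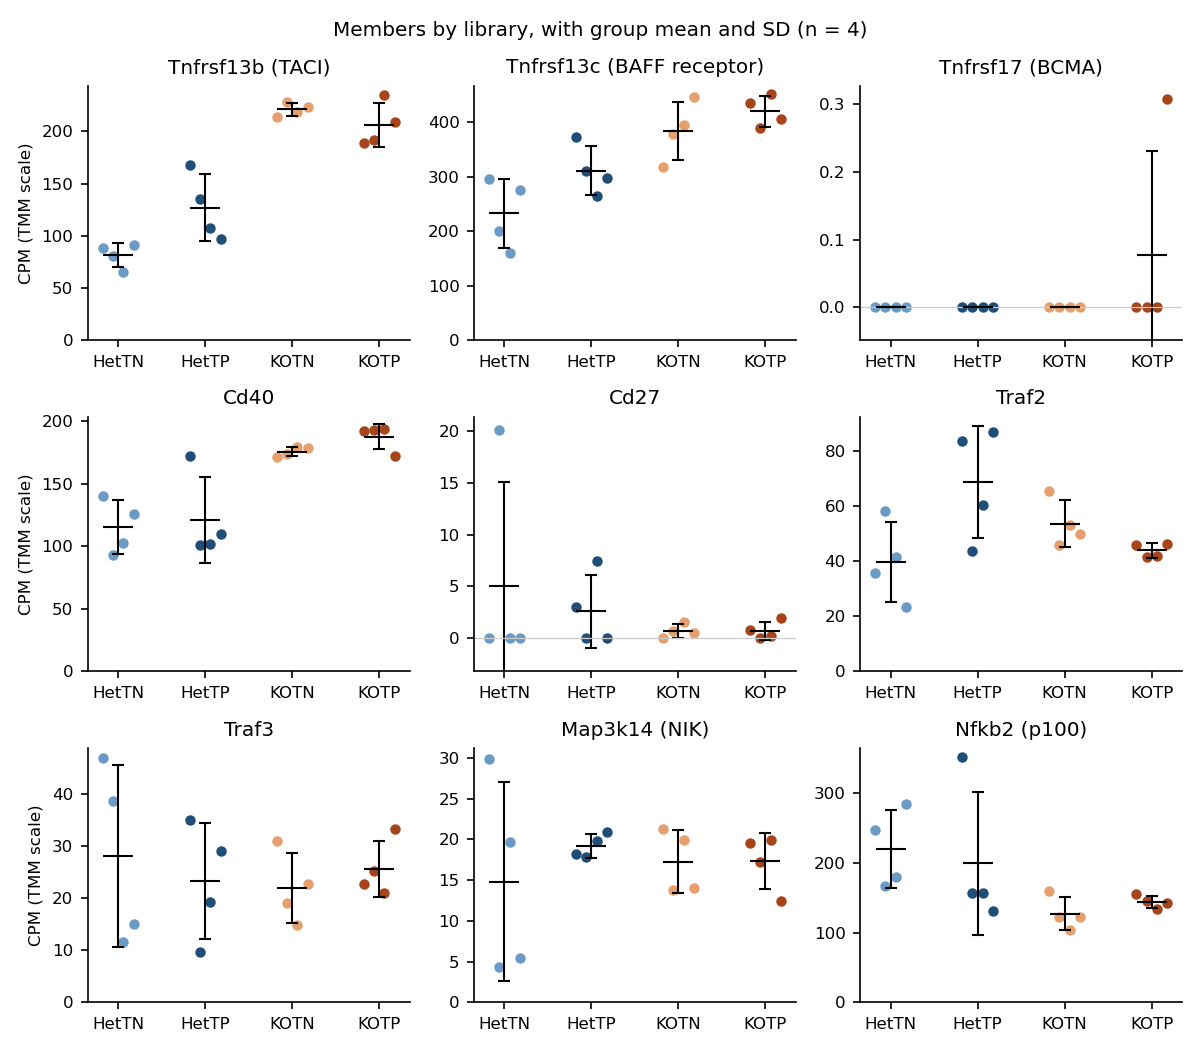
Level of each member (CPM, TMM scale, linear axis from 0) in the 4 libraries of each group. Points are libraries, the horizontal dash is the mean and the bars are SD (n = 4). Tnfrsf13b lay at 65.4 to 90.9 CPM in HetTN and at 214 to 228 CPM in KOTN, while Tnfrsf17 was at 0 in all libraries but 1.

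TACI, the BAFF and APRIL receptor encoded by Tnfrsf13b (ENSMUSG00000010142, GRCm38 chr11:61126755-61149372, plus strand), was the member that differed most by test. Its level was 88.3, 80.7, 65.4 and 90.9 CPM in HetTN libraries 1 to 4 and 168, 136, 108 and 97.0 CPM in HetTP. It was 214, 228, 219 and 223 CPM in KOTN and 189, 192, 235 and 209 CPM in KOTP. All 8 homozygous libraries lay above all 8 heterozygous ones, and the HetTP libraries lay above the HetTN libraries. KOTN exceeded HetTN by 2.72-fold, or 1.44 on the log2 scale (SE 0.17, edgeR's quasi-likelihood test with Benjamini-Hochberg adjustment, adjusted p = 2.71e-05). KOTP exceeded HetTP by 1.62-fold, or 0.70 on the log2 scale (SE 0.17, edgeR adjusted p = 0.00971). Limma voom with sample weights, which lets libraries differ in spread, also called both (adjusted p = 0.000166 and 0.00723). Within the heterozygous mice, tdTomato-positive cells held 1.56-fold more, a log2 fold change of 0.64 with a 95% interval from 0.10 to 1.19, which did not pass (edgeR adjusted p = 0.964). The plasma cell marker sum, mostly Mzb1 and Jchain, was lower in HetTP than in HetTN without overlap, while Sdc1 and Irf4 went the other way. The part of plasma cells in this Tnfrsf13b difference was not tested. Within the homozygous mice the log2 difference was -0.09, with an interval from -0.25 to 0.08. The difference between these 2 tdTomato effects was -0.74 (SE 0.23, edgeR adjusted p = 0.256), with an interval from -1.24 to -0.25, and it was not called.

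The BAFF receptor gene Tnfrsf13c (ENSMUSG00000068105, chr15:82221743-82224369, minus strand), the main survival receptor of mature B cells, was the most abundant member. It was at 295, 201, 160 and 275 CPM in HetTN and at 372, 310, 265 and 297 CPM in HetTP. Homozygous cells had 317, 377, 394 and 446 CPM in KOTN and 435, 388, 451 and 405 CPM in KOTP. Neither genotype pair overlapped, although the HetTN libraries spread widely. The rise from HetTN to KOTN passed, with a log2 fold change of 0.72 (SE 0.17, edgeR adjusted p = 0.0115, voom adjusted p = 0.0173), though not in a fit of those 8 libraries alone (edgeR adjusted p = 0.0686). From HetTP to KOTP it was 0.43 (SE 0.17, edgeR adjusted p = 0.131), which did not. The tdTomato differences were 0.42 in heterozygous and 0.14 in homozygous cells, and neither passed.

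Cd40 (ENSMUSG00000017652, chr2:165055627-165072948, plus strand), the receptor for T cell help, stood at 140, 93.2, 102 and 126 CPM in HetTN and at 172, 101, 102 and 110 CPM in HetTP. KOTN libraries held 171, 174, 179 and 178 CPM and KOTP libraries 192, 192, 193 and 172 CPM. The homozygous values were close together, and only the first HetTP library reached them. Homozygous cells held more in both populations, with log2 fold changes of 0.61 (SE 0.18, edgeR adjusted p = 0.0333) among tdTomato-negative and 0.63 (SE 0.17, edgeR adjusted p = 0.0253) among tdTomato-positive cells. Voom called both (adjusted p = 0.047 and 0.0128), but each edgeR call was kept in only 2 of 8 fits that left out 1 library. It held without the first or the fourth HetTN library, and without the first HetTP or the fourth KOTP library. In the other fits the log2 change lay between 0.51 and 0.62. Neither tdTomato comparison passed, at 0.07 (interval from -0.48 to 0.62) in heterozygous and 0.11 (interval from -0.06 to 0.27) in homozygous cells.

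BCMA and CD27 were at or near 0. Tnfrsf17 (ENSMUSG00000022496, chr16:11313812-11320074, plus strand), a receptor of plasma cells, had 4 counts in the fourth KOTP library (0.308 CPM) and none in the other 15. By counting error alone, a group without a count allows up to 0.064 CPM in HetTN, 0.0524 CPM in HetTP and 0.091 CPM in KOTN. These levels come from 3 counts over the group's total. Cd27 (ENSMUSG00000030336, chr6:125232622-125237010, minus strand), a marker of human memory B cells and of T cells, had 231 counts in the second HetTN library and no count in the rest of its group. It had 36 and 125 counts in the first and the third HetTP libraries and none in the rest. Homozygous libraries had between 0 and 14 counts in KOTN and between 0 and 25 in KOTP. The level was thus 20.1 CPM in 1 HetTN library and at most 1.92 CPM in any homozygous library, and the groups overlapped. The fitted log2 change from HetTN to KOTN was -2.84 with an interval from -7.52 to 1.85 (edgeR adjusted p = 0.515), and it was 5.93 without the second HetTN library. That library had the highest summed macrophage markers (1367 CPM) and a T cell sum of 240 CPM, and the third HetTP library had the highest T cell sum (647 CPM). The part of those cells in the Cd27 counts was not tested.

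Traf2 (ENSMUSG00000026942, chr2:25517982-25546940, minus strand), an adaptor recruited by CD40 and TACI, was at 35.9, 58.3, 41.5 and 23.3 CPM in HetTN and at 83.8, 43.9, 60.4 and 86.9 CPM in HetTP. It was at 65.6, 45.9, 53.2 and 49.7 CPM in KOTN and at 46.0, 41.6, 41.8 and 46.4 CPM in KOTP. All pairs of groups overlapped. The log2 difference between tdTomato-positive and tdTomato-negative cells was 0.79 in heterozygous mice (SE 0.37, edgeR adjusted p = 0.992) and -0.27 in homozygous mice (SE 0.13, edgeR adjusted p = 0.43). The difference of these effects was -1.08 (SE 0.38, edgeR adjusted p = 0.321), with an interval from -1.88 to -0.28, and it was not called either.

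Traf3 (ENSMUSG00000021277, chr12:111166370-111267153, plus strand), which tethers NIK for degradation, ranged from 11.6 to 47.0 CPM in HetTN and from 9.60 to 35.1 CPM in HetTP. In KOTN it ranged from 15.0 to 30.9 CPM and in KOTP from 21.1 to 33.4 CPM. Map3k14, the gene of NIK (ENSMUSG00000020941, chr11:103219762-103267472, minus strand), ranged from 4.35 to 29.8 CPM in HetTN, from 17.8 to 20.9 CPM in HetTP, from 13.8 to 21.2 CPM in KOTN and from 12.5 to 19.9 CPM in KOTP. Both genes overlapped in every comparison and neither passed. Their genotype differences were not resolved, since the 95% interval of the log2 change between KOTP and HetTP ran from -0.82 to 1.09 for Traf3 and from -1.19 to 0.89 for Map3k14.

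Nfkb2 (ENSMUSG00000025225, chr19:46304320-46312385, plus strand), which encodes the p100 precursor, was at 248, 167, 179 and 285 CPM in HetTN and at 353, 158, 157 and 132 CPM in HetTP. Homozygous cells had 161, 122, 103 and 123 CPM in KOTN and 155, 145, 135 and 143 CPM in KOTP. Every KOTN library lay below every HetTN library, whereas HetTP and KOTP overlapped. The log2 change from HetTN to KOTN was -0.79 (SE 0.26), which narrowly missed the threshold (edgeR adjusted p = 0.058) and passed with limma voom and sample weights (adjusted p = 0.0281). Between HetTP and KOTP it was -0.46 (SE 0.26, edgeR adjusted p = 0.333), and -0.03 without the first HetTP library, which held 353 CPM.

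**Figure D2:**
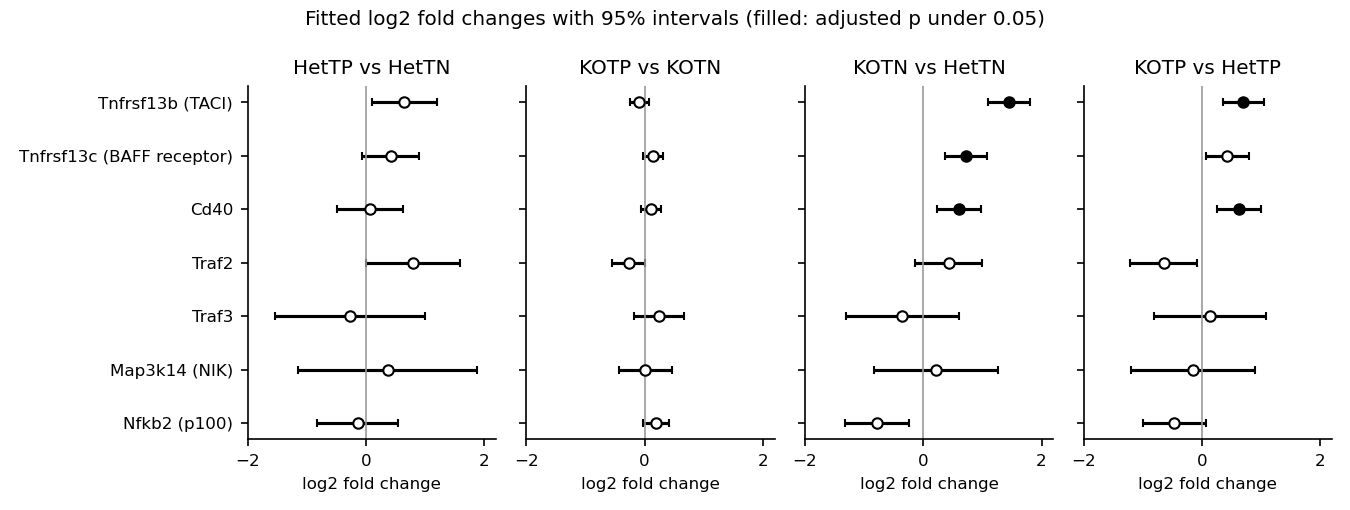
Fitted log2 fold changes (points) with 95% intervals (bars) of the 7 members tested in all 4 comparisons, from edgeR's quasi-likelihood fit. Filled points had an adjusted p under 0.05, which held for Tnfrsf13b, Tnfrsf13c and Cd40 in KOTN against HetTN, for Tnfrsf13b and Cd40 in KOTP against HetTP, and for no member in the tdTomato comparisons.

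Of the 9 members, 8 passed the filter on low counts in the genotype comparisons and 7 in the tdTomato comparisons. Between KOTN and HetTN, 3 members were called, all higher, where 10.5% of the 10687 genes tested were called and 5.61% were called higher. Between KOTP and HetTP, 2 members were called, both higher, where 10.3% of genes were called and 5.06% were called higher. Higher genes made up 53.5% and 49.2% of all calls, and 63.5% and 59.6% with upper quartile scaling. The libraries of 4 and 2 members did not overlap, against 19.7% and 20.1% of all genes tested. The median log2 change of the members tested was 0.33 among tdTomato-negative and -0.01 among tdTomato-positive cells, against 0.00 and -0.03 over all genes, and the called members were all receptors. In counts simulated with the genotypes' unequal spread, 22.4% and 25.8% of edgeR's calls in these 2 genotype comparisons were of unchanged genes. The genotype calls and the shares of genes called may therefore hold more false calls than the threshold of 0.05 allows. No member was called between tdTomato-positive and tdTomato-negative cells. The libraries of 1 and 0 of the 7 members tested did not overlap, against 4.85% of all genes in heterozygous and 7.45% in homozygous mice. In heterozygous mice 0% of 9703 genes were called by edgeR, with 487 at an unadjusted p under 0.05, 38 called by DESeq2 and none by voom. In homozygous mice 2.37% of 9974 genes were called, and no member reached an unadjusted p under 0.05. No member was called for the difference of the tdTomato effects, where 0.122% of genes were. Of simulated 2-fold changes, edgeR called 8% between HetTP and HetTN and 6% for the difference of effects, against 91% between KOTP and KOTN. A missing call in the first 2 therefore cannot show that a member was unchanged.

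The summed B cell markers differed between the genotypes, so the members were also set against that sum in the same library, a measure chosen after the data had been seen. The markers did not all move alike. Between HetTN and KOTN, Cd38 was at 115 ± 39.9 and 403 ± 51.9 CPM, Ebf1 at 147 ± 48.9 and 159 ± 8.44 CPM, Cr2 at 404 ± 86.5 and 331 ± 13.98 CPM, and Pax5 at 121 ± 72.0 and 39.6 ± 7.10 CPM (SD, n = 4). Per 1000 CPM of B cell markers, Tnfrsf13b ranged from 5.28 to 7.12 CPM in HetTN and from 13.2 to 14.2 in KOTN, which did not overlap. In HetTP it ranged from 8.48 to 13.4 and in KOTP from 10.7 to 13.5, which did overlap. Tnfrsf13c overlapped between HetTN (12.9 to 23.8) and KOTN (19.9 to 27.4), and in KOTP (22.7 to 25.9) it overlapped HetTP (25.2 to 29.9) from below. Cd40 overlapped in both populations, at 8.08 to 11.3 and 10.7 to 10.96 in tdTomato-negative and at 9.60 to 13.8 and 10.8 to 11.2 in tdTomato-positive cells. Nfkb2 did not overlap in either, with 14.5 to 20.0 in HetTN against 6.24 to 10.1 in KOTN, and 11.5 to 28.2 in HetTP against 7.72 to 8.98 in KOTP. On this measure Tnfrsf13b separated the genotypes among tdTomato-negative cells, Nfkb2 did so in both populations, and Tnfrsf13c and Cd40 in neither. For Nfkb2 among tdTomato-positive cells the separation is seen only after the division, since its CPM overlapped and the divisor is higher in homozygous libraries.

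Ratios between members in the same library need no library scaling and, per coding length, compare the levels of the genes directly. The ratio of Tnfrsf13b to Nfkb2 was 1.17 to 1.78 in HetTN and 1.76 to 3.17 in HetTP, against 4.91 to 7.80 in KOTN and 4.49 to 6.44 in KOTP. That of Cd40 to Nfkb2 was 1.09 to 1.42 and 1.21 to 2.06 in heterozygous cells, and 2.64 to 4.29 and 2.98 to 3.56 in homozygous cells. Both ratios separated the genotypes without overlap. Each set a receptor called higher in homozygous cells over Nfkb2, which was lower in KOTN, so they restate those differences. The ratio of Tnfrsf13b to Tnfrsf13c, the receptors that share BAFF, was 0.253 to 0.347 in HetTN and 0.423 to 0.572 in KOTN, while HetTP (0.277 to 0.384) and KOTP (0.369 to 0.441) overlapped. That of Tnfrsf13b to Cd40 was 0.938 to 1.29 in HetTN and 1.82 to 1.95 in KOTN, and it overlapped between HetTP (1.31 to 2.00) and KOTP (1.47 to 1.81). Tnfrsf13c to Nfkb2 separated the genotypes, at 3.87 to 5.21 in HetTN against 8.58 to 16.6 in KOTN and 4.59 to 9.78 in HetTP against 11.6 to 14.6 in KOTP. Tnfrsf13c to Cd40 overlapped between HetTN (2.74 to 3.83) and KOTN (3.25 to 4.39) and between HetTP (3.79 to 5.41) and KOTP (3.54 to 4.13). These ratios were also chosen after the data had been seen and carry no test.

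Per kilobase of coding sequence, the level of Tnfrsf13c led in every group, at 368 CPM per kb in HetTN, 491 in HetTP, 606 in KOTN and 663 in KOTP. Tnfrsf13b came second, at 109, 170, 296 and 276, followed by Cd40, at 104, 109, 158 and 169. In HetTN Tnfrsf13b and Cd40 overlapped and the order between them was not resolved, whereas in HetTP, KOTN and KOTP Tnfrsf13b lay above Cd40 in every library. Nfkb2 was next at 79.9, 72.5, 46.3 and 52.5 CPM per kb, then Traf2 at 26.1, 45.1, 35.2 and 28.8. Traf3, at 16.5, 13.7, 12.9 and 15.1, and Map3k14, at 5.24, 6.79, 6.11 and 6.12, were the least abundant members that had counts in every library.

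**Figure D3:**
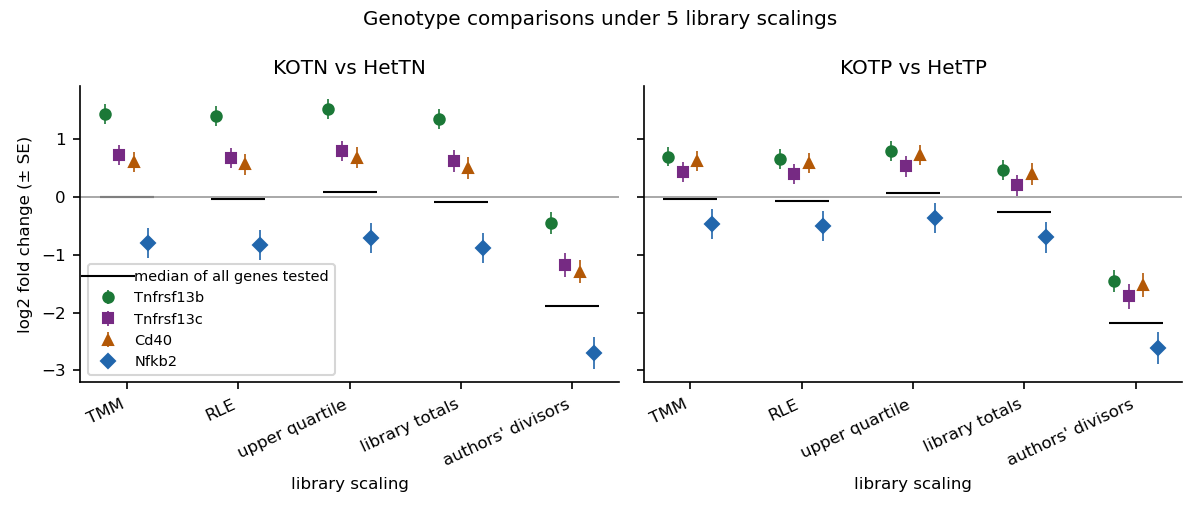
Log2 fold changes (points, bars are SE) of 4 members between the genotypes under 5 ways of scaling the libraries, with the median of all genes tested as a black dash. Under the authors' divisors the median fell to -1.88 and -2.18 and all 4 members were below 0, with Tnfrsf13b still above the median and Nfkb2 below it.

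The direction of the genotype differences depended on what a library was scaled to. The authors' own normalized columns used a divisor per library, with which the deposited counts came to 1.345 to 1.502 per read of the divisor in heterozygous and 0.369 to 0.419 in homozygous libraries. With those divisors as library sizes, the median of all genes was -1.88 between KOTN and HetTN and -2.18 between KOTP and HetTP on the log2 scale, and Tnfrsf13b was at -0.44 and -1.45. Relative to these medians Tnfrsf13b was 1.44 and 0.72 higher, Tnfrsf13c 0.72 and 0.46 higher, Cd40 0.60 and 0.66 higher, and Nfkb2 differed by -0.81 and -0.44. The genotype statements above are therefore relative to the other genes of a library, not per cell. With library totals alone, the median between KOTP and HetTP was -0.25. Tnfrsf13b was then at 0.47 (edgeR adjusted p = 0.0966) and Cd40 at 0.40 (edgeR adjusted p = 0.208), so neither passed, and Traf2 at -0.88 (edgeR adjusted p = 0.0434) did. The share of higher calls among all called genes was 43.1% between KOTN and HetTN and 27.7% between KOTP and HetTP there.

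**Figure D4:**
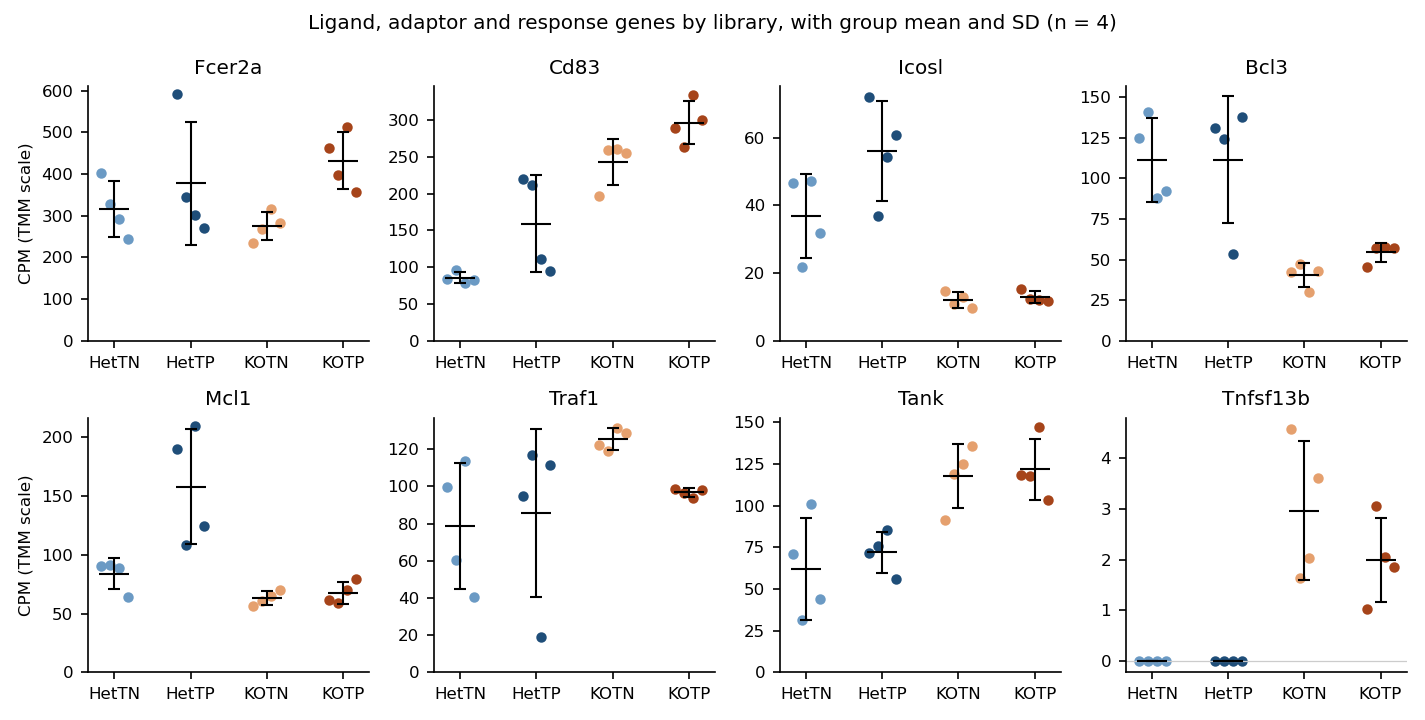
Level (CPM, TMM scale, linear axis) of 8 ligand, adaptor and response genes in the 4 libraries of each group. Points are libraries, dashes are means and bars are SD (n = 4). Icosl and Cd83 separated the genotypes among tdTomato-negative cells, and Tnfsf13b had counts only in homozygous libraries.

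Of 4 ligand genes, 1 could be tested. Tnfsf13b, the gene of BAFF, had no count in any heterozygous library and 95 counts in KOTN and 73 in KOTP, between 1.03 and 4.58 CPM. Against 3 counts over the heterozygous group, KOTN was at least 45.0-fold and KOTP at least 37.6-fold higher. These bounds cover counting error only, not the spread between libraries, which was wider in heterozygous ones. The edgeR test called both comparisons (adjusted p = 0.0102 and 0.00941) and voom called neither (adjusted p = 0.0951 and 0.067). The dendritic cell marker sum, mostly Flt3, was higher in the same homozygous libraries, while the mean of Batf3 of that list was lower. Adgre1 was also higher there. The sum of the 12 macrophage markers, which include Adgre1, was lower, at 59.4 to 113 CPM against 123 to 1367 CPM in heterozygous libraries. The part of other cells in the Tnfsf13b counts was not tested. Tnfsf13 (APRIL) had at most 4 counts in a group, Cd40lg 36 counts in 1 HetTN library and at most 4 in any other group, and Cd70, the CD27 ligand, 292 counts in 1 HetTN library and at most 14 in any other group.

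All 17 further adaptors, ubiquitin enzymes and kinases of these receptors were tested. In homozygous cells 1 changed with tdTomato: Traf1, an NF-kappaB-induced adaptor, fell from between 119 and 131 CPM in KOTN to between 93.6 and 98.6 CPM in KOTP, a log2 change of -0.36 (SE 0.09, edgeR adjusted p = 0.0278), a call kept in 3 of 8 fits that left out 1 library. Tank, a TRAF-binding inhibitor, was the 1 gene called between KOTN and HetTN, with a log2 change of 0.93 (SE 0.27, edgeR adjusted p = 0.0365), overlapping libraries and no call by voom (adjusted p = 0.0517). None of the 17 was called between KOTP and HetTP or between HetTP and HetTN. Over all genes tested, 2.37% were called between KOTP and KOTN, 10.5% between KOTN and HetTN and 10.3% between KOTP and HetTP. Birc3, named for its role on NIK after its values were seen, was at 143 ± 29.5 CPM in HetTN and 150 ± 15.6 CPM in KOTN (SD, n = 4). The list's median log2 change was 0.16 between KOTN and HetTN and -0.02 between KOTP and HetTP, against 0.00 and -0.03 over all genes.

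Among 18 genes of RELB, BCL3 and CD40 or BAFF receptor responses, 17 were tested between tdTomato populations and 18 between genotypes. Between KOTN and HetTN 1 rose and 2 fell, where 10.5% of all genes tested were called. Between KOTP and HetTP 1 rose and 3 fell, where 10.3% were called. Cd83, an activation marker of B cells, was at 78.8 to 96.3 CPM in HetTN and at 196 to 261 CPM in KOTN, a log2 rise of 1.51 (SE 0.22, edgeR adjusted p = 0.000266, voom adjusted p = 0.00102). Between HetTP and KOTP it rose by 0.90 (SE 0.22, edgeR adjusted p = 0.0112, voom adjusted p = 0.00178), from 94.8 to 220 CPM to between 263 and 333 CPM, a call lost with library totals (edgeR adjusted p = 0.0634). Icosl, the ICOS ligand, moved the other way, from between 21.8 and 47.3 CPM in HetTN to between 9.64 and 14.7 CPM in KOTN and from between 36.8 and 72.1 CPM in HetTP to between 11.7 and 15.4 CPM in KOTP. Its log2 changes were -1.61 (SE 0.31) and -2.12 (SE 0.32), with edgeR adjusted p = 0.00265 and 0.000219 and voom adjusted p = 0.00286 and 4.31e-06. Bcl3, an atypical I-kappaB protein that binds p52, fell by 1.45 and 1.03 on the log2 scale (edgeR adjusted p = 0.00158 and 0.0135, voom adjusted p = 0.00113 and 0.0064). HetTP (53.4 to 138 CPM) and KOTP (45.4 to 57.8 CPM) overlapped for Bcl3, and that call was lost without the first KOTP library (edgeR adjusted p = 0.0538). Mcl1, a survival gene of the BCL2 family, fell by 1.23 between HetTP and KOTP (SE 0.21, edgeR adjusted p = 0.000789, voom adjusted p = 9.35e-05). Its mean was 158 CPM in HetTP and 67.4 CPM in KOTP, against 83.9 CPM in HetTN and 63.2 CPM in KOTN. Between HetTN and KOTN its log2 change was -0.41 (SE 0.21, edgeR adjusted p = 0.252), which was not called.

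The partner of p52, Relb, was also named after its values were seen. It was at 68.7 ± 31.4 CPM in HetTN and 80.3 ± 5.82 CPM in KOTN, and at 107 ± 13.7 CPM in HetTP and 85.2 ± 17.0 CPM in KOTP (SD, n = 4), and was not called. In homozygous cells Fcer2a, the gene of CD23, rose with tdTomato from between 235 and 316 CPM in KOTN to between 357 and 512 CPM in KOTP. That log2 change was 0.66 (SE 0.10, edgeR adjusted p = 0.000973) and the groups did not overlap. Fcer2a was the 1 gene of this list called with tdTomato in homozygous cells, where 2.37% of all genes tested were called. In heterozygous mice its HetTN (244 to 402 CPM) and HetTP (272 to 593 CPM) libraries overlapped. The median log2 change of the list was 0.12 between KOTN and HetTN and -0.14 between KOTP and HetTP, against 0.00 and -0.03 over all genes.

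Of 18 other TNF receptor superfamily genes, 11 were tested in the genotype comparisons. Tnfrsf8 (CD30) had no count in HetTN and 29 in KOTN, while HetTP had 290 counts. By counting error alone KOTN held at least 13.7-fold more than HetTN (edgeR adjusted p = 0.0441, voom adjusted p = 0.267). The call was lost in all 8 fits that left out 1 library. Tnfrsf4 (OX40), a receptor of activated T cells, had no count in HetTP and 150 counts in KOTP, between 2.17 and 6.43 CPM, while HetTN had 30. By counting error alone KOTP held at least 77.2-fold more than HetTP (edgeR adjusted p = 0.00751, voom adjusted p = 0.0417). Fas, which the sort selected against at the surface, was lower in KOTP than in KOTN by a log2 change of -0.45 (SE 0.11, edgeR adjusted p = 0.0199), a call kept in 4 of 8 fits that left out 1 library. No other gene of this list was called in these 3 comparisons, and none between HetTP and HetTN. The shares of all genes tested that were called were 10.5% between KOTN and HetTN, 10.3% between KOTP and HetTP and 2.37% between KOTP and KOTN.

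The genes whose log2 CPM followed each member most closely over the 16 libraries were named as a description, by Pearson's r among 7007 genes. The libraries share genotype, table and depth, which such an r includes. For Tnfrsf13b they were Plek (r = 0.958), Slc46a3 (r = 0.957) and Cd83 (r = 0.952). Within the 8 homozygous libraries alone these values were 0.52, 0.07 and 0.06. Tnfrsf13c was followed by Mob3a (r = 0.937), which kept r = 0.923 within heterozygous and 0.84 within homozygous libraries. Cd40 was followed by Gimap1 (r = 0.957) and Cd22 (r = 0.947), a B cell marker of the list used above, and Nfkb2 by Nelfb (r = 0.897). Traf2 was followed by Bcdin3d (r = 0.842), Traf3 by Ibtk (r = 0.864), Map3k14 by Ssh3 (r = 0.939) and Cd27 by Prpf4 (r = 0.802). Within homozygous libraries alone these 4 values were 0.73, 0.64, 0.53 and 0.80. There Cd40 had 0.65 with Gimap1 and 0.64 with Cd22, and Nfkb2 had 0.26 with Nelfb. Cd27 had no count in 3 HetTN, 2 HetTP, 1 KOTN and 1 KOTP libraries, so its r rests on few counts. Among the members, Tnfrsf13b and Tnfrsf13c had r = 0.894 over all libraries, 0.861 within heterozygous and 0.07 within homozygous libraries. Cd40 and Nfkb2 had r = -0.19 over all libraries 0.87 within the heterozygous and 0.15 within the homozygous ones, and the first HetTP library was the highest of its group for both genes.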

How the data were processed

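The submitters' processing notes name Trim Galore, STAR 2.2.0, featureCounts and the build mm10. Strand setting and handling of read pairs are not given in the sources used here. The authors deposited raw counts over coding sequence and a per-million signal, per the file headers, in 1 table per genotype. The per-million signal was used for its divisors only. The tables were joined on the symbol. Counts were scaled with TMM, filtered with filterByExpr and tested with edgeR 4.0.16 (R 4.3.3), robust quasi-likelihood, with Benjamini-Hochberg adjustment over all genes and a threshold of 0.05. The tdTomato comparisons used the 8 libraries of a genotype, and the genotype comparisons and the difference of effects all 16. On simulated data with the genotypes' unequal spread, the 16-library fit called more unchanged genes than the threshold allows. They made up 22.4% of calls between KOTN and HetTN, 25.8% between KOTP and HetTP and 18.2% for the difference of effects. With voom (limma 3.58.1) they made up 5.06%, 4.12% and 9.52%, so values from voom stand beside the genotype calls. DESeq2 1.42.0 was an alternative. Whether libraries came from separate animals is not stated, so p-values measure the spread between libraries. Floors cover counting error only. Positions and coding lengths came from GENCODE (GRCm38). Members and lists were chosen with earlier results of these data known, and the authors' divisors were added as an alternative after seeing the data. Named were all members, up to 4 called genes with the smallest p per list and comparison, and the 3 genes most like each member, of which the text gives the leading ones.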

Additional observations from a re-analysis of the deposited data

Results flagged for a closer look

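Among 73 gene and group combinations, 9 had 1 library far from the other 3 of its group by Dixon's criterion, where chance gives about 5%. Among the members, Cd40 stood at 172 CPM in the first HetTP library, with the next at 110 CPM, and at 172 CPM in the fourth KOTP library, below the next at 192 CPM. Nfkb2 stood at 353 CPM in that same HetTP library, with the next at 158 CPM. Cd27 stood at 20.1 CPM in the second HetTN library and Tnfrsf17 at 0.308 CPM in the fourth KOTP library, with the other libraries of the group at 0. Among the other genes, Cd83 was low at 196 CPM in the first KOTN library, Bcl3 at 53.4 CPM in the third HetTP and 45.4 CPM in the first KOTP library, and Mcl1 at 64.2 CPM in the fourth HetTN library.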

How the results depend on the processing

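The Tnfrsf13b calls held in 8 of 8 fits without 1 library in both genotype comparisons, and the Tnfrsf13c call between KOTN and HetTN in 8 of 8. Without 1 library, members called ranged from 2 to 3 between KOTN and HetTN and from 1 to 2 between KOTP and HetTP. Genes called without 1 library ranged from 608 to 1280 between KOTN and HetTN (728 or fewer without any 1 KOTN library), from 722 (without the fourth KOTP library) to 1120 between KOTP and HetTP, from 128 (without the second KOTN library; 148 without the fourth) to 396 (without the first) between KOTP and KOTN, from 0 to 0 between HetTP and HetTN and from 1 (without any 1 homozygous library) to 41 (without the first HetTN library) for the difference of effects.

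Between HetTP and HetTN, genes called were 114 with all 16 libraries, 1 without the filter and 38 with DESeq2, against 0. Between KOTP and KOTN they were 2 with all 16 libraries and 358 with DESeq2 and with voom, against 236, and the Traf1, Fcer2a and Fas calls were lost with all 16. Between KOTN and HetTN they were 724 with those 8 libraries, and the authors' divisors gave 7337 there and 7999 between KOTP and HetTP, with 7 members lower in each and 2.10% and 1.05% of calls higher. For the difference of effects they were 6 with library totals, 194 with DESeq2, 7 with voom and 2 with the replicate block, against 13. RLE scaling, DESeq2, voom and the block called 4 members between KOTN and HetTN. Library totals left 1 member called between KOTP and HetTP, Traf2. Higher genes among the KOTP against KOTN calls were 37.7%, 28.7% with library totals and 14.6% with the divisors. Nfkb2 between KOTN and HetTN passed with RLE scaling, library totals, DESeq2, voom, the replicate block, those 8 libraries and the divisors.

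Same-numbered libraries had correlations between -0.0289 and 0.0868, taken over deviations from the group means. Within a genotype, the same number gave the highest value for heterozygous libraries 1 and 3 and homozygous library 3, and not for the others. Correlations this low, from 4 libraries per group, cannot show whether the numbers pair libraries. The replicate block brought Nfkb2 to -0.79 (edgeR adjusted p = 0.0274) and lost Traf1 (adjusted p = 0.0518) and Tnfrsf8 (adjusted p = 0.0727), with no other call changed among the named genes. Cd27 for the difference of effects was at -4.85 with the block.

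Directions reversed in these log2 values. With library totals they were Map3k14 -0.012 between KOTP and KOTN, Traf3 -0.10 between KOTP and HetTP and Cd40 -0.11 for the difference of effects. With voom they were Traf3 0.050 between HetTP and HetTN, Cd27 1.74 between KOTN and HetTN and Cd27 -1.77 for the difference of effects. With the divisors they were Map3k14 -0.061 between KOTP and KOTN, Nfkb2 0.046 between HetTP and HetTN and Cd40 -0.23 for the difference of effects. Between KOTN and HetTN the divisors gave Traf2 -1.45, Tank -0.95, Cd40 -1.29, Tnfrsf13b -0.44, Map3k14 -1.73, Cd83 -0.37 and Tnfrsf13c -1.17. Between KOTP and HetTP they gave Cd40 -1.52, Tnfrsf13b -1.45, Cd83 -1.26, Tnfrsf13c -1.72 and Traf3 -2.02. Under library totals and the divisors the median of all genes moved too, and relative to that median each of these genes kept its main direction, for example Traf3 0.15 between KOTP and HetTP with library totals and Nfkb2 -0.17 between HetTP and HetTN with the divisors. The cause of the reversals with voom and the block was not tested.

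Without 1 library, ranges crossed 0 for Traf3 (-0.54 to 0.10), Cd40 (-0.15 to 0.18) and Nfkb2 (-0.56 to 0.013) between HetTP and HetTN and for Map3k14 (-0.080 to 0.15) between KOTP and KOTN. They did so for Traf3 (-0.61 to 0.013), Map3k14 (-0.094 to 0.82) and Cd27 (-3.62 to 5.93) between KOTN and HetTN, and for Traf3 (-0.13 to 0.41) between KOTP and HetTP. They did so for Cd40 (-0.087 to 0.25) and Cd27 (-7.74 to 2.39) in the difference of effects. None of these was called. Tnfrsf17, Cd27 and the ligands other than Tnfsf13b had few or no counts in most libraries, and the reason was not tested.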
